A study of Mus musculus with 2 samples.

Results

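The nuclear genes for subunits of the oxidative phosphorylation machinery were followed in mouse embryonic stem (ES) cells of a WT and a G34R line. They were chosen by name from the 26127 probes of the deposited files. Names beginning with Ndufa, Ndufb, Ndufc, Ndufs, Ndufv, Sdha, Sdhb, Sdhc, Sdhd, Cox4, Cox5, Cox6, Cox7, Cox8 or Atp5 were taken, which gave 85 probes. The 4 Ndufaf assembly factors, 1 numbered pseudogene and 4 genes on chromosome 8 were left out, so that 76 genes remained. The rule itself uses names and chromosome only, although it was set with earlier results of these data known. By name, 36 belong to complex I, 6 to complex II, 17 to complex IV and 17 to ATP synthase. Complex III is not covered by these names and is described below as a separate list.

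WT cells are unmodified ES cells of the 129S1/SvImJ strain, with both copies of H3f3a and of H3f3b intact. G34R cells come from the same strain and carry 1 H3f3a allele in which the second exon was replaced, so that an H3.3 G34R minigene is driven by the H3f3a promoter after Cre excision, and their second H3f3a allele and both H3f3b alleles are WT. Both lines were grown in serum with leukaemia inhibitory factor, at under 20 passages, and 1 RNA-seq library per line was available. Without replicates no difference below could be tested, and genotype, clone, culture and library cannot be told apart.

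Oxidative phosphorylation takes place in the inner mitochondrial membrane. Complex I (NADH dehydrogenase) and complex II (succinate dehydrogenase) pass electrons to ubiquinone, complex III passes them on to cytochrome c, and complex IV (cytochrome c oxidase) hands them to oxygen. Complexes I, III and IV pump protons, and ATP synthase uses the returning protons to make ATP. Most subunits are encoded in the nucleus, while a small catalytic set is encoded by mitochondrial DNA. ES cells carry immature mitochondria and rely strongly on glycolysis, although the respiratory chain is expressed.

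The WT library was estimated to hold 88.3 M (mega) reads and the G34R library 72.7 M reads, from the RPKM steps of short single-exon genes. RPKM (reads per kilobase of merged exon, scaled to library size) is a level per length. A comparison of levels between genes therefore depends on merged exon length, which can exceed that of a transcript. For Atp5e the merged exons span 1756 bases and the longest coding transcript 421 bases. The ES cell markers were present in both lines, with Pou5f1 at 194 RPKM in WT and 189 RPKM in G34R cells. Nanog, at 127 and 52.2 RPKM, was lower in G34R cells, and Utf1, at 61.9 and 109 RPKM, was higher. Of the 9 markers of cardiac and skeletal muscle examined, none reached a mean of 1 RPKM, nor did any of the 6 fibroblast markers. Of 7 early differentiation markers Nes alone did, with 1.36 RPKM in WT and 1.56 RPKM in G34R cells. Among the others, Gata4 (0.50 and 1.18 RPKM), Gata6 (0.30 and 1.09 RPKM) and Sox17 (0.18 and 0.56 RPKM) were higher in G34R cells at a low level. Foxa2 (0.13 and 0.07 RPKM) and Pax6 (0.13 and 0.03 RPKM) were lower, and T (0.03 and 0.05 RPKM) was higher. The part of these genes in the values below was not tested. H3f3a had 8.17 RPKM in WT and 4.89 RPKM in G34R cells, a value that does not separate its alleles.

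Most of the 76 genes were well expressed and close to each other in level in the 2 lines. A mean over both libraries of at least 1 RPKM was reached by 72 genes, a mean of at least 10 RPKM by 57 and a mean of at least 100 RPKM by 6. The 4 genes below 1 RPKM were Cox4i2, Cox6a2, Cox8b and Cox8c, all of them tissue-restricted forms of complex IV subunits. Among the 72 genes, the median level was 22.465 RPKM in WT and 22.045 RPKM in G34R cells, against 5.45 and 5.27 RPKM for the 10293 genes of the whole series that passed the same filter. The RPKM of all 76 genes summed to 2749 in WT and 2555 in G34R cells.

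**Figure D1:**
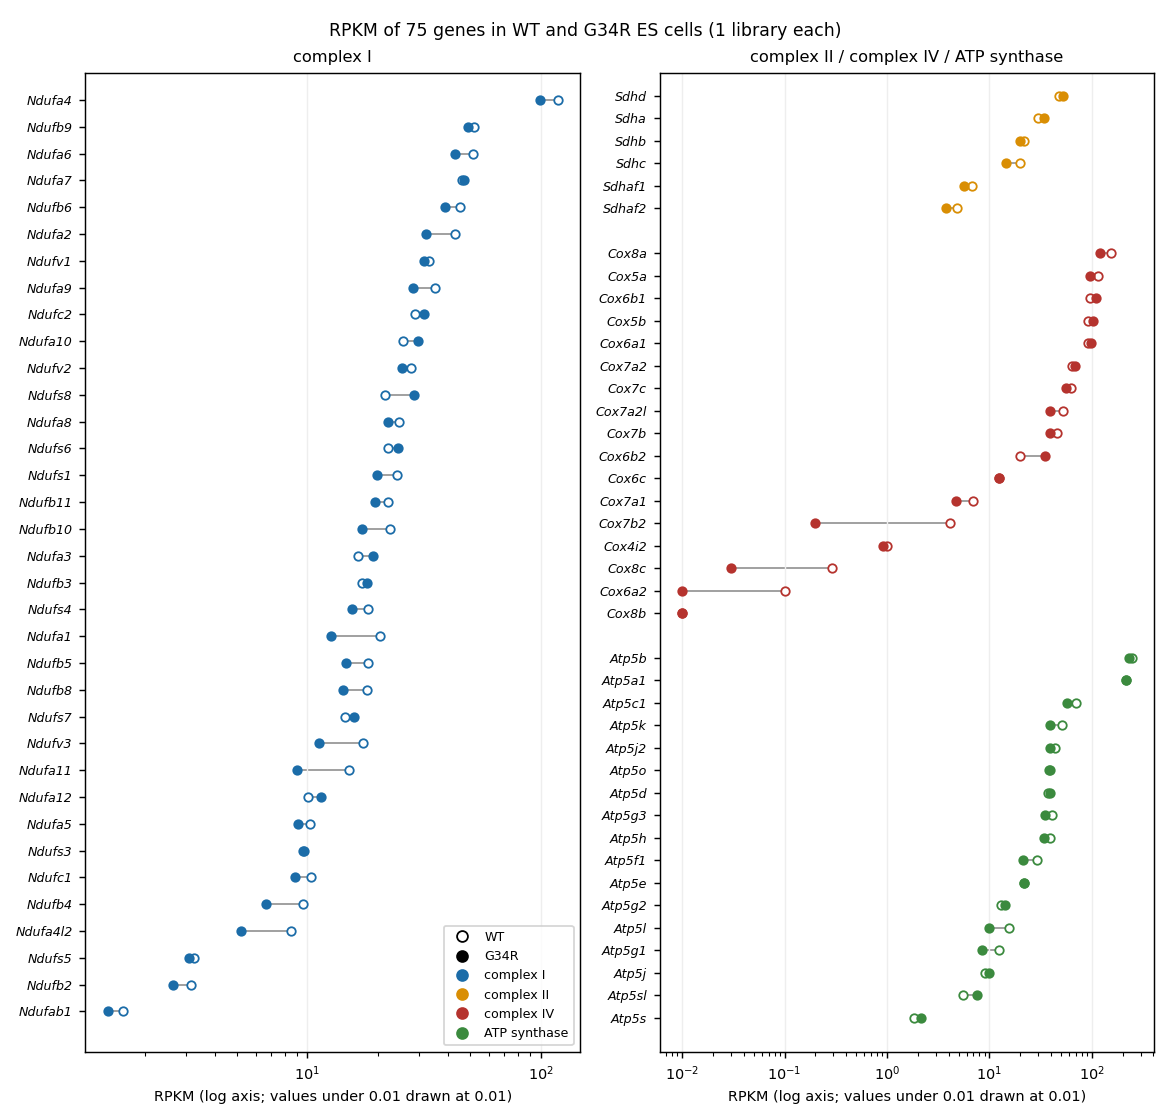
RPKM of 75 of the genes on a log axis, with open points for WT and filled points for G34R cells (1 library each, no error bars), grouped by complex and ordered by mean level. The points of most genes nearly coincide, and the widest gaps are those of Cox7b2, Cox8c and Cox6a2 in complex IV, with values under 0.01 RPKM drawn at 0.01.

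The 2 genes of highest level encode the hexamer of ATP synthase that carries out catalysis. Atp5b, the gene of the catalytic beta subunit, had 247 RPKM in WT and 229 RPKM in G34R cells. Atp5a1, the gene of the alpha subunit, had 218 RPKM in WT and 215 RPKM in G34R cells. The log2 (G34R/WT RPKM) was -0.11 for Atp5b and -0.02 for Atp5a1, so both were nearly level between the lines, and the sign for Atp5a1 turned (log2 0.03) when ratios were centred on the median of all genes. In RPKM the 2 genes were within a small margin of each other in each line. This margin depends on merged exon length, which is 4237 bases for Atp5b and 3135 for Atp5a1. The estimated reads in WT cells were 92252 for Atp5b and 60267 for Atp5a1.

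The other genes of the F1 head were lower in level than the alpha and beta genes. Atp5c1, for the gamma subunit of the central stalk, had 70.4 RPKM in WT and 56.7 RPKM in G34R cells (log2 -0.31). Atp5d, for the delta subunit, had 37.7 RPKM in WT and 38.9 RPKM in G34R cells (log2 0.05). Atp5e, for the epsilon subunit, had 21.8 RPKM in WT and 22 RPKM in G34R cells (log2 0.01). Of the 5 F1 genes, 3 were lower and 2 higher in G34R cells, and their median log2 ratio was -0.02.

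The membrane sector and peripheral stalk of ATP synthase had a wider range. Atp5l, the gene of subunit g, had 15.6 RPKM in WT and 9.86 RPKM in G34R cells (log2 -0.66). Atp5f1, for subunit b of the stalk, had 28.99 RPKM in WT and 21.26 RPKM in G34R cells (log2 -0.45). Atp5k, for subunit e, had 51.6 RPKM in WT and 39.5 RPKM in G34R cells (log2 -0.39). These were among the lowest ratios in the complex. Atp5sl, counted here by name only as a relative of the coupling factor gene Atp5s, had 5.50 RPKM in WT and 7.50 RPKM in G34R cells (log2 0.45). The remaining 5 genes outside the F1 head and the c-subunit family (Atp5j2, Atp5o, Atp5h, Atp5j and Atp5s) had log2 ratios from -0.18 to 0.23. Over all 17 genes with an ATP synthase name the median log2 ratio was -0.11, and 11 were lower in G34R cells. Without Atp5s and Atp5sl the median was -0.15.

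In complex I the nuclear genes for core subunits, which hold the flavin and the iron-sulphur clusters, differed in both directions. Ndufs8, for a subunit with 2 iron-sulphur clusters, had 21.4 RPKM in WT and 28.7 RPKM in G34R cells (log2 0.42). Ndufs7 had 14.4 RPKM in WT and 15.8 RPKM in G34R cells (log2 0.13). Both were higher in G34R cells. Ndufs1, the largest core subunit of the NADH-oxidising module, had 24.2 RPKM in WT and 20.0 RPKM in G34R cells (log2 -0.28). Ndufv1, whose protein binds the flavin, had 33.3 RPKM in WT and 31.6 RPKM in G34R cells (log2 -0.08). Ndufv2, its partner in the same module, had 27.7 RPKM in WT and 25.4 RPKM in G34R cells (log2 -0.12). Ndufs3 was level, at 9.65 and 9.59 RPKM, and its sign turned (log2 0.04) when centred on the median of all genes.

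The accessory subunits, which surround this core, were mostly lower in G34R cells. Ndufa4 had the highest level under a complex I name, with 118 RPKM in WT and 99.2 RPKM in G34R cells (log2 -0.25), and its protein is now regarded as a component of complex IV. Ndufb9, a membrane-arm subunit, followed with 52.0 RPKM in WT and 49.0 RPKM in G34R cells (log2 -0.09, but 0.13 when centred on genes of similar exon length). Ndufa6, a subunit that binds an acyl carrier protein, had 51.2 RPKM in WT and 43.1 RPKM in G34R cells (log2 -0.25). The largest differences lay further down in level. Ndufa11, a membrane-embedded accessory subunit, had 15.1 RPKM in WT and 9.05 RPKM in G34R cells (log2 -0.74). Ndufa1, a small X-linked membrane-arm subunit, had 20.5 RPKM in WT and 12.6 RPKM in G34R cells (log2 -0.70). Ndufv3, an accessory subunit of the NADH-oxidising module, had 17.4 RPKM in WT and 11.2 RPKM in G34R cells (log2 -0.64). Ndufb4 was at 9.57 RPKM in WT and 6.64 RPKM in G34R cells (log2 -0.53), within 1.5-fold.

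The other 21 complex I genes had log2 ratios between -0.41 (Ndufa2) and 0.21 (Ndufa3). Low in level among them were 3, with means of 3.18 RPKM for Ndufs5, 2.91 RPKM for Ndufb2 and 1.51 RPKM for Ndufab1, the mitochondrial acyl carrier protein. For Ndufb2 and Ndufab1 the merged exons span 5628 and 6883 bases, against 419 bases for Ndufa1, so that their reads (an estimated 1565 and 985 in WT cells) are divided by a long length. Over the 36 genes with a complex I name, 26 were lower and 10 higher in G34R cells, with a median log2 ratio of -0.20.

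Complex II has 4 subunit genes, which were split evenly. Sdhd, for a membrane anchor, had 47.7 RPKM in WT and 52.0 RPKM in G34R cells (log2 0.13). Sdha, for the flavoprotein that oxidises succinate, had 29.96 RPKM in WT and 34.02 RPKM in G34R cells (log2 0.18). Both of these were higher in G34R cells. Sdhb, for the iron-sulphur subunit, had 21.9 RPKM in WT and 20.1 RPKM in G34R cells (log2 -0.12). Sdhc, for the second membrane anchor, had 20.1 RPKM in WT and 14.5 RPKM in G34R cells (log2 -0.47). Sdhaf1 and Sdhaf2 share the Sdha prefix but encode assembly factors, and had log2 ratios of -0.28 and -0.36. With them the median of the 6 genes was -0.20, and without them that of the 4 subunits was 0.00.

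Complex IV contained the subunit genes of highest level after those of ATP synthase, and the widest spread. Cox8a, the ubiquitous form of a small membrane subunit, had 153 RPKM in WT and 122 RPKM in G34R cells (log2 -0.33). Cox5a, for a matrix-facing subunit, had 115 RPKM in WT and 95.1 RPKM in G34R cells (log2 -0.27). Cox5b, for another matrix-facing subunit that binds zinc, went the other way, with 91.5 RPKM in WT and 102 RPKM in G34R cells (log2 0.16). Cox7a2l, whose protein joins complexes III and IV in supercomplexes, had 52.8 RPKM in WT and 38.8 RPKM in G34R cells (log2 -0.44). Cox7c and Cox6c had log2 ratios of -0.17 and -0.02. Of the 13 complex IV genes with at least 1 RPKM, 8 were lower and 5 higher in G34R cells, and the median log2 ratio was -0.17.

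Several complex IV subunits have 2 or 3 alternative genes, of which 1 is used in most tissues and the others in heart and muscle or in testis. Differences between the lines were largest in this group. Cox7b2, the testis form, had 4.11 RPKM in WT and 0.20 RPKM in G34R cells. Its log2 ratio of -4.36 (-2.09 with 1 RPKM added to each value) was the only one past 2-fold among the 72 genes. These levels stand for an estimated 197 and 8 reads, and the 95% exact binomial interval of the log2 ratio, which covers counting error only, ran from -5.57 to -3.33. Cox7b, the general form, was at 46.1 RPKM in WT and 39.5 RPKM in G34R cells (log2 -0.22). Cox7b2 therefore made up 8.19% of their summed RPKM in the WT line and 0.504% in the G34R line.

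Cox6b2, another form expressed mainly in testis, differed in the opposite direction. It had 19.8 RPKM in WT and 34.6 RPKM in G34R cells (log2 0.80, counting interval 0.68 to 0.92). The general form Cox6b1 had 95.6 RPKM in WT and 109.8 RPKM in G34R cells (log2 0.20). The share of Cox6b2 in both genes was 17.17% in WT and 23.97% in G34R cells. The third testis form, Cox8c, was at 0.29 RPKM in WT and 0.03 RPKM in G34R cells, or an estimated 12 reads and 1 read (log2 -3.27, counting interval -8.72 to -0.55).

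The forms used in heart and skeletal muscle were low or not detected. Cox7a1 had 6.92 RPKM in WT and 4.74 RPKM in G34R cells (log2 -0.55), beside 64.6 and 67.8 RPKM of the general form Cox7a2. Cox6a2 had 0.10 RPKM in WT and is listed at 0 in G34R cells, from an estimated 6 reads and 0 reads, while Cox6a1 had 91.0 and 97.8 RPKM. Cox8b is listed at 0 in both lines, and Cox4i2, an oxygen-responsive form, was at 1.01 and 0.91 RPKM. The general forms were thus the main ones in both lines in each family measured, apart from Cox4, whose other gene lies on chromosome 8 and was not analysed here.

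**Figure D2:**
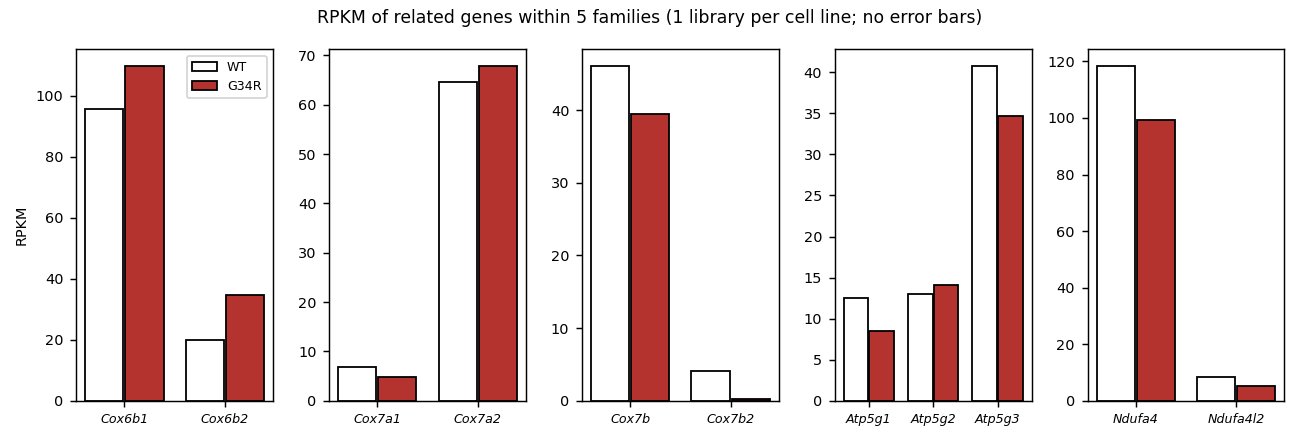
RPKM (bars, linear axes starting at 0, each family on its own scale) of related genes in 5 families, with white bars for WT and red bars for G34R cells, 1 library each. Cox6b2 is the only restricted form that is higher in G34R cells (19.8 and 34.6 RPKM), and Cox7b2 is barely visible there at 0.20 RPKM.

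ATP synthase and complex I also have such families. The c subunit, of which the rotating ring is built, is encoded by Atp5g1, Atp5g2 and Atp5g3. Atp5g3 supplied most of the RPKM of the family, with 40.8 RPKM in WT and 34.6 RPKM in G34R cells (log2 -0.24), or 61.5% and 60.5%. Atp5g1 had 12.5 RPKM in WT and 8.50 RPKM in G34R cells (log2 -0.56). Atp5g2 had 13.0 RPKM in WT and 14.1 RPKM in G34R cells (log2 0.12). The order of Atp5g1 and Atp5g2 is uncertain, since every 50-base stretch of the Atp5g2 transcript also occurs elsewhere in the genome. The shares also depend on merged exon length, which is 4908 bases for Atp5g1, 647 for Atp5g2 and 2181 for Atp5g3. In WT cells an estimated 5426, 741 and 7848 reads stand behind these values. Ndufa4l2, a relative of Ndufa4 known as a target of hypoxia-inducible factors, had 8.49 RPKM in WT and 5.19 RPKM in G34R cells (log2 -0.71, counting interval -0.90 to -0.53).

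Germ cell markers did not share 1 direction with the testis forms. Dazl had 7.07 RPKM in WT and 1.60 RPKM in G34R cells, and Stra8 had 4.53 and 0.52 RPKM. Mael had 9.14 RPKM in WT and 2.70 RPKM in G34R cells. Ddx4, by contrast, had 2.64 RPKM in WT and 7.49 RPKM in G34R cells, and Sycp3 had 1.49 and 2.02 RPKM. The part of these markers in the values of Cox7b2, Cox8c and Cox6b2 was not tested.

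Set against all genes, the 72 oxidative phosphorylation genes seldom differed by much and were more often lower. More than 1.5-fold lower in G34R cells were 6 of the 72 genes (8.33%), namely Cox7b2, Ndufa11, Ndufa4l2, Ndufa1, Atp5l and Ndufv3, where 12.5% of all 10293 genes with a mean of at least 1 RPKM were. More than 1.5-fold higher was 1 gene (1.39%), Cox6b2, where 10.6% of all genes were. Past 2-fold there were 1 gene lower and 0 higher, beside 5.09% and 3.55% of all genes.

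Lower at all in G34R cells were 49 of the 72 genes (68.1%), beside 54.4% of all genes. The median log2 ratio was -0.17, with quartiles of -0.32 and 0.08, beside a median of -0.05 over all genes. Among the 57 genes with a mean of at least 10 RPKM, 37 were lower (64.9%), beside 56.4% of the 3152 genes of that level. Of these 57, 4 were more than 1.5-fold lower (7.02%) and 1 higher (1.75%), beside 8.5% and 7.99% of the 3152. The shares more than 1.5-fold lower or higher were thus no larger than in the whole series.

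**Figure D3:**
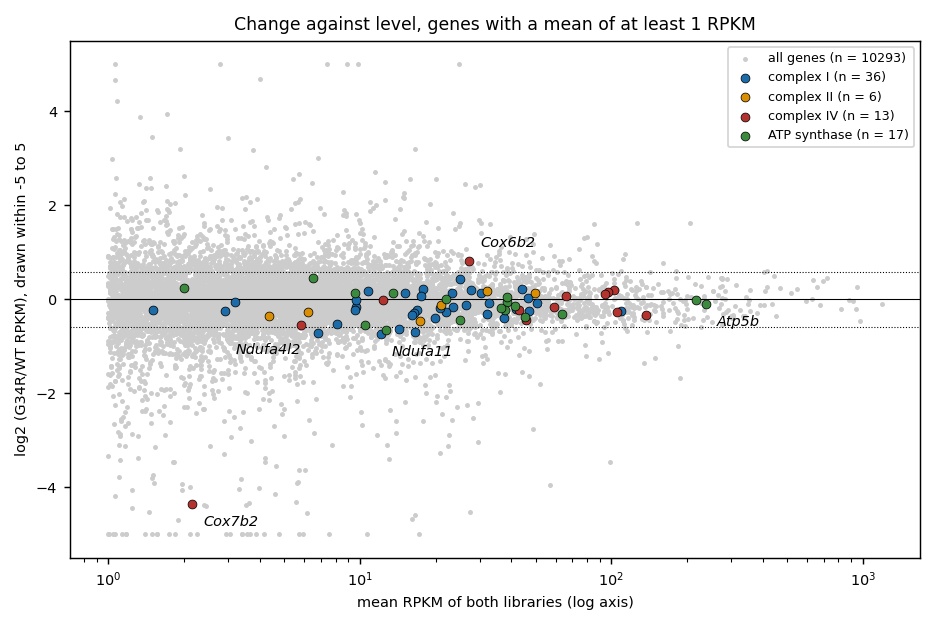
Log2 (G34R/WT RPKM) against the mean RPKM of both libraries (log axis) for the 10293 genes with a mean of at least 1 RPKM (grey) and the 72 oxidative phosphorylation genes (coloured by complex), with dotted lines at 1.5-fold and ratios beyond 5 in either direction drawn at 5. Most coloured points lie between the dotted lines, slightly below 0 (median -0.17), and Cox7b2 stands apart at -4.36.

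The log2 ratio moved with exon length over all genes, while the class medians of the oxidative phosphorylation genes did not follow length in order. Over all genes, the median log2 ratio was -0.22 for the 732 genes with under 1000 bases of merged exon, -0.10 for those from 1000 to under 2000 bases, -0.04 for those from 2000 to under 4000 bases and -0.02 for those of 4000 bases or more. Of the 71 oxidative phosphorylation genes with a known length, 28 had under 1000 bases, and their median was -0.17, with 17 lower. The 20 genes from 1000 to under 2000 bases had a median of -0.17, the 18 from 2000 to under 4000 bases one of -0.06 and the 5 longer genes one of -0.24. When each ratio was centred on all genes of its own length class, the median over the 71 genes was -0.039, and 56.3% were below 0. Of the 7 genes past 1.5-fold, Ndufa1 (-0.48), Ndufa4l2 (-0.49) and Atp5l (-0.44) then lay within it. The part of length in the lower median was not tested further.

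**Figure D4:**
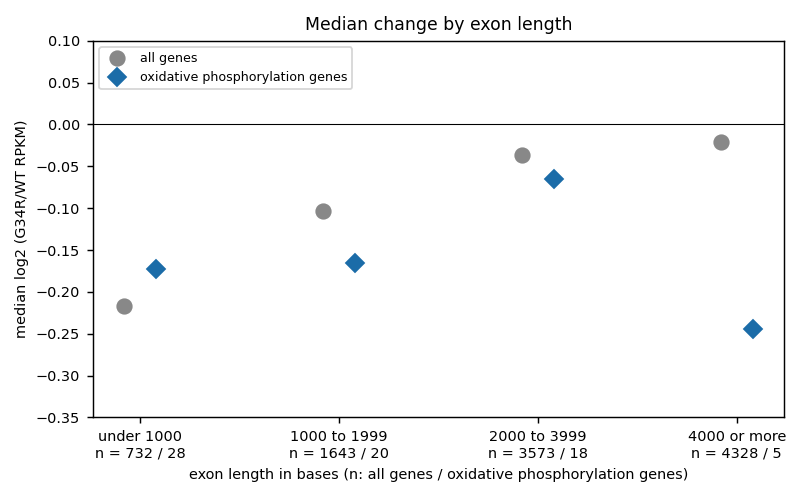
Median log2 (G34R/WT RPKM) by class of merged exon length, for all genes with a mean of at least 1 RPKM (grey circles) and for the oxidative phosphorylation genes among them (blue diamonds), with the number of genes of each under the axis. Both medians are below 0 in every class, and that of all genes approaches 0 as length increases, from -0.22 to -0.02. The last class holds 5 oxidative phosphorylation genes.

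Other housekeeping groups had medians below that of all genes as well. The 74 mitochondrial ribosomal protein genes had a median log2 ratio of -0.19, with 55 lower, and the 35 proteasome subunit genes with at least 1 RPKM one of -0.15, with 24 lower. The 91 cytosolic ribosomal protein genes had a median of -0.29, with 74 lower. A median below that of all genes was therefore not particular to the oxidative phosphorylation genes. No test of a difference between groups was possible with 1 library per line.

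The 6 genes more than 1.5-fold lower and the 1 higher lie on different chromosomes or far apart, and were compared with the 5 nearest genes on each side that had a mean of at least 1 RPKM. For Cox6b2 the median log2 ratio of the 10 neighbours was -0.07, and for Ndufa4l2 it was -0.05. For Atp5l it was 0.35, opposite in sign to that of the gene itself, and its neighbours ranged from -4.58 to 1.94. Around Ndufa11, on chromosome 17 (mm9, 56857185 to 56863671), 8 of 10 neighbours were lower (median -0.33), and around Ndufv3 on the same chromosome 7 of 10 were (median -0.16). Around Cox7b2, on chromosome 5 (71834063 to 71939444), 8 of 10 were lower (median -0.44). The neighbours of Cox7b2 were spread over 5862 kb, against 305 kb for those of Ndufa11, so they are less close to the gene. Around Ndufa1, on the X chromosome (34727583 to 34731158), 8 of 10 were lower as well (median -0.35), with 1 neighbour at -5.99. Over all genes with a mean of at least 1 RPKM, 54.4% were lower.

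All 3 X-linked genes of the set (Ndufa1, Cox7b and Ndufb11) were lower in G34R cells, with log2 ratios of -0.70, -0.22 and -0.18. Of the 341 X-linked genes in the whole series with at least 1 RPKM, 68.3% were lower, with a median of -0.19. Only Ndufa1 lay well below that median.

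Counting error was small at this depth for most genes. Of the 71 genes for which reads could be estimated, the 95% counting interval of the log2 ratio lay below 0 for 45 and above 0 for 17, and held 0 for 9. These intervals describe the 2 libraries and not the 2 genotypes, since differences between cultures or library preparations are not in them. For the genes not yet given one, the interval was -0.82 to -0.66 for Ndufa11, -0.88 to -0.52 for Ndufa1, -0.72 to -0.55 for Ndufv3 and -0.85 to -0.48 for Atp5l.

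Many of these genes have processed pseudogenes or close relatives, which bear on how firmly a level can be read. For 75 genes, each stretch of 50 bases (the read length) of the longest coding transcript was searched in the mm9 genome on both strands. In 36 genes no stretch occurred outside the gene, and in 22 at least 10% did. The share was 100% for Atp5g2, 89.4% for Atp5l, 62.7% for Cox5b, 59.6% for Atp5h and 54.3% for Cox7a2l. A read from such a stretch may be placed at another locus, so the levels and the log2 ratios of these 5 genes are uncertain. The median log2 ratio was -0.16 in the 49 genes with under 10% and at least 1 RPKM, and -0.17 in the 17 with 10% to under 50%. Cox7b2, Cox6b2, Ndufv3 and Ndufa4l2 had no such stretch.

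Lists of known members of related pathways were compared in the same way. The 11 genes of complex III and cytochrome c had a median log2 ratio of -0.06, with 7 lower and 4 higher. Cyct, the testis form of cytochrome c, was the only one past 2-fold, with 4.65 RPKM in WT and 12.9 RPKM in G34R cells (log2 1.47). The somatic form Cycs had 8.41 and 6.85 RPKM (log2 -0.30). Uqcrc1, for a core protein of complex III, was the highest in level, with 111 RPKM in WT and 128 RPKM in G34R cells (log2 0.21).

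Of the 32 assembly factors found, 31 had at least 1 RPKM, and 22 of these were lower and 9 higher (median -0.12), with 0 past 2-fold. These counts include Sdhaf1 and Sdhaf2, which also belong to the 76 genes and were both lower. Cox18, which inserts a mitochondrially made subunit of complex IV into the membrane, had 6.75 RPKM in WT and 3.99 RPKM in G34R cells (log2 -0.76). Lyrm7, a complex III assembly factor below the filter, had 0.19 RPKM in WT and 1.02 RPKM in G34R cells. The 13 enzymes of the tricarboxylic acid cycle, which feed electrons to complexes I and II, had a median of 0.05, with 5 lower and 8 higher and 0 past 1.5-fold.

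Among 17 expressed regulators of mitochondrial genes, 13 were lower and 4 higher, with a median of -0.13. Nrf1, a transcription factor for many respiratory genes, had 3.59 RPKM in WT and 3.44 RPKM in G34R cells (log2 -0.06). Gabpa, the DNA-binding subunit of another such factor, had 16.8 and 13.2 RPKM (log2 -0.35), and Tfam, which packages mitochondrial DNA, 9.68 and 8.05 RPKM (log2 -0.27). The coactivator gene Ppargc1b was the only one past 2-fold, with 0.71 RPKM in WT and 1.57 RPKM in G34R cells, and Ppargc1a is listed at 0 in both. The 11 expressed hypoxia response genes were split, with 6 lower and 5 higher, and had a median of -0.29. Past 2-fold, 1 was lower and 2 were higher. Bnip3 had 21.2 RPKM in WT and 6.81 RPKM in G34R cells (log2 -1.63), while Epas1, the gene of hypoxia-inducible factor 2 alpha, had 4.62 and 18.5 RPKM (log2 2.00) and Egln3 had 5.73 and 12.1 RPKM (log2 1.08). The part of these genes in the lower value of Ndufa4l2 was not tested.

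**Figure D5:**
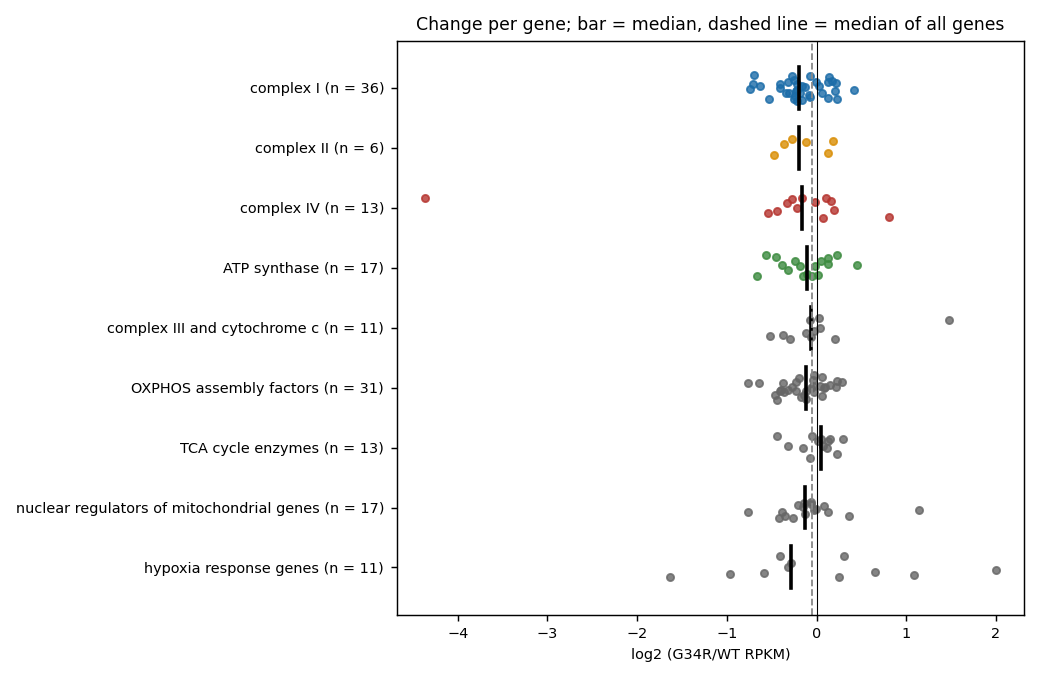
Log2 (G34R/WT RPKM) of each gene with a mean of at least 1 RPKM (points) in the 4 complexes and in 5 lists of pathway genes, with a black bar at each median and a dashed line at the median of all genes (-0.05). The medians of the 4 complexes lie between -0.20 and -0.11, that of the tricarboxylic acid cycle enzymes at 0.05, and the hypoxia response genes spread from -1.63 to 2.00.

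The 13 subunits encoded by mitochondrial DNA are each listed at 0 RPKM in both libraries. Genes that every cell uses at a high level are thus at 0, so these entries were not read as expression values, and the nuclear and mitochondrial subunits could not be compared.

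Promoter sequences were examined for what the genes have in common apart from their names. RefSeq promoter windows (GRCm38.p6, 250 bases before to 50 after an annotated start) were found for 65 of the 76 genes. The letters GCATGCGC, the core of the NRF1 binding motif, occurred on either strand in 12.3% of the 65, in 3.03% of all 25821 genes in the table and in 7.27% of the 6827 matched genes with at least 1 RPKM. The letters AAGATGGCG, a YY1 motif, were in 12.3%, 1.63% and 4.03%. The letters CCGGAAG, read by ETS factors such as GABP, were in 23.1%, 9.86% and 22.4%, and the TATA box letters TATAAA in 9.23%, 15.7% and 7.76%. A match of letters does not show that a factor binds. Overlap between motifs was not removed, and no test was made.

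To show the promoter types beside the values, stretches of 60 bases before the start are printed for 4 genes with the NRF1 core (in capitals, including overlapping copies on both strands), for 2 with the ETS letters on the reverse strand (in capitals) and for 2 testis forms with neither. They are written 5′ to 3′ on the strand of the gene, from RefSeq GRCm38.p6.
Atp5g2, chr15:102671058-102671117, minus strand: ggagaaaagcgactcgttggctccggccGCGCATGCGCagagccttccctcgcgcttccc
Atp5k, chr5:108434416-108434475, minus strand: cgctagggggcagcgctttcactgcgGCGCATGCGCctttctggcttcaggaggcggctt
Ndufa11, chr17:56717676-56717735, plus strand: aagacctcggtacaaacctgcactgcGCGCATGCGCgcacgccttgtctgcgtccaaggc
Sdhb, chr4:140961191-140961250, plus strand: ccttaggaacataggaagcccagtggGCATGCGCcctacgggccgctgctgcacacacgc
Sdhd, chr9:50603862-50603921, minus strand: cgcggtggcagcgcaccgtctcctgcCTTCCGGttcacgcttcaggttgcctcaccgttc
Cox6b1, chr7:30626115-30626174, minus strand: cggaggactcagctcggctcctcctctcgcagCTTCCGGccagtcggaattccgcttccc
Cox7b2, chr5:71548206-71548265, minus strand: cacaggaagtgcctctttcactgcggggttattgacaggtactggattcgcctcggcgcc
Cox6b2, chr7:4753095-4753154, minus strand: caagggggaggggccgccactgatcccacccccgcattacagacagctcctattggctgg

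Of the genes shown with the NRF1 core, Atp5g2 alone was higher in G34R cells. Their log2 ratios were 0.12 for Atp5g2, -0.39 for Atp5k, -0.74 for Ndufa11 and -0.12 for Sdhb. The counting interval of Atp5g2 held 0 (-0.03 to 0.28), and all of its 50-base stretches also occur elsewhere in the genome. The genes shown are among 8 of the 65 with this core. Both genes shown with the ETS letters were higher in G34R cells, with log2 ratios of 0.13 for Sdhd and 0.20 for Cox6b1. They are among 15 of the 65 genes with these letters, and not all of the 15 were higher. In complex II, 4 of the 5 genes with a promoter had the letters, while only 2 of its 6 genes were higher. Beyond this, the other genes with either motif were not compared by direction. The ratio of observed to expected CpG over the whole window was 0.43 for Cox6b2 and 0.56 for Cox7b2. In the other genes shown it ran from 0.57 for Sdhb, next to the value of Cox7b2, to 1.14 for Ndufa11.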

How the data were processed

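The authors aligned 50 bp stranded single-end reads of 1 library per cell line to mm9 with STAR (2.4.2a in the submitters' processing notes) and deposited RPKM per gene, computed in Seqmonk over merged isoforms with strand and length taken into account. STAR by default keeps reads that align to up to 10 places, and primary alignments were used. RPKM under 0.01 were raised to 0.01 before the log2 of G34R over WT was taken, and genes with a mean of at least 1 RPKM over both libraries were compared. Merged exon lengths came from GENCODE M1 (mm9), which matched 26074 probes and 75 of the 76 genes (not Ndufb8). Reads per gene were estimated from RPKM, length and the estimated depth, and the 95% intervals (Clopper-Pearson) cover counting error only. No p-value was calculated, since there was 1 library per line. Members, gene lists and the rule for named genes (alternative forms, core, F1 and Sdh genes, the 3 highest of each complex, and genes past 1.5-fold) were chosen with earlier results of these data known. The scripts were tested on simulated data. Alternatives were other pseudocounts, filters, scalings and memberships. Python 3.11.15, NumPy 2.4.6, pandas 2.3.3, SciPy 1.17.1, numba 0.67.0 and matplotlib 3.10.9 were used. Values of 1 gene are not reported here, although it is counted in the totals.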

Additional observations from a re-analysis of the deposited data

How the results depend on the processing

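There are no replicates, and Cox8c and Cox6a2 rest on few reads. No paired analysis was possible because each line has 1 library. Under 11 alternatives (8 planned and 3 chosen after seeing the data), the share of genes lower in G34R cells ranged from 56.3% to 69.1%, the number more than 1.5-fold lower from 3 to 8, and the median of complex IV from -0.22 to -0.02 (the latter with a mean of at least 10 RPKM). The number of genes more than 2-fold lower was 3 with no filter on low RPKM, 2 with at least 0.25 RPKM in 1 library and 0 with a mean of at least 10 RPKM, as the filters admit Cox8c and Cox6a2 or leave out Cox7b2. Centring on genes of the same exon length class, chosen after seeing the data, gave a median of -0.039 over all genes of the set and -0.031 for complex I, 3 genes more than 1.5-fold lower, 2 more than 1.5-fold higher and 1 (Cox6b2) more than 2-fold higher. The median of complex II was 0.00 without Sdhaf1 and Sdhaf2 and also with a mean of at least 10 RPKM, which leaves both out, and those of the other complexes stayed below 0 under every alternative run. The direction of the 7 genes past 1.5-fold was not put to the test by these alternatives. Filters, memberships and added RPKM cannot turn a sign, and the scalings and centrings shifted ratios by less than these genes differed.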
